A study of Mus musculus with 6 samples.

Results

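The genes that build the coats and sorting complexes of membrane traffic were examined in the prefrontal cortex of mice with and without a working *Pla2g4e* gene. The set held 47 genes of the 56923 in the count tables. They are listed by what their products do, a rule that uses no measured value, although the list was drawn up with results of these data known: 8 subunits of the COPI coat, 10 genes of the COPII coat, 4 of the adaptor AP-1, 5 of AP-2, 5 of AP-3, 4 clathrin genes including the clathrin assembly protein *Picalm*, 5 Arf GTPases, 3 GGA adaptors and 3 retromer subunits. Each of the 47 symbols matched a single gene identifier, and all 47 were among the 19084 genes tested. RNA was sequenced from 3 knockout (KO) and 3 wild-type (WT) samples. The KO mice carry a constitutive tm2a allele of *Pla2g4e* in the strain C57BL/6N-A tm1Brd, a gene trap with a LacZ cassette that is predicted to be null because the transcript is spliced into the trap. The allele is present in every cell type from conception, and the tissue was taken as the anterior part of the brain. Age, sex, litter and sequencing batch of these animals are not given in the labels. Nothing in the labels says whether the 3 samples of a group came from separate mice. The p-values measure the spread between these samples, and the *Xist* and Y-linked values given below differ within each group as libraries of different animals do, while replicates 2 and 3 of a group cannot be told apart in this way.

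Coat proteins assemble on a membrane, gather cargo and bend the membrane into a vesicle or tubule. COPII buds vesicles from the endoplasmic reticulum, COPI returns material from the Golgi apparatus, clathrin with its adaptors works at the trans-Golgi network, endosomes and plasma membrane, and retromer returns receptors from endosomes. Small GTPases of the Sar and Arf families start most of these coats by inserting into the membrane when they bind GTP. In neurons, clathrin and AP-2 retrieve synaptic vesicle proteins, AP-3 sorts cargo to synaptic vesicles and lysosome-related organelles, and retromer recycles glutamate receptors and other surface proteins. The product of *Pla2g4e* is a calcium-dependent N-acyltransferase of the cytosolic phospholipase A2 family. The paper describes a role of this enzyme in forming tubules for clathrin-independent endocytosis and recycling. Arf6 acts in that route.

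Libraries held 11792463 to 14594230 fragments, and mitochondrial genes took 6.13% to 7.41% of them. *Xist* was expressed in KO replicate 1 and in the library labelled WT replicate 1, at 1406 and 959.6 CPM (fragments of a gene per 1e6 of the library). The other 4 libraries were at 0.241 CPM of *Xist* at most and held Y-linked transcripts instead. These *Xist* values are scaled by library totals alone, and all other CPM values are TMM-scaled. The Y-linked *Ddx3y* was at 0, 58.9 and 63.1 CPM in KO replicates 1 to 3 and at 0.157, 61.9 and 62.0 CPM in WT replicates 1 to 3. KO replicate 1 stood furthest from the rest (chi-square per degree of freedom 8.47 to 15.8 against the other libraries, and 2.90 for the closest pair, KO replicate 2 and WT replicate 3). *Pla2g4e* itself was at 5.95, 8.12 and 7.97 CPM in KO replicates 1 to 3 and at 7.84, 11.3 and 13.2 CPM in WT replicates 1 to 3, a log2 fold change of -0.55 (SE 0.21, limma-voom adjusted p = 0.635). The groups overlapped, with WT replicate 1 as labelled between the lowest and the highest KO library. Counts are summed over all exons, and reads ahead of and behind the trap were not counted apart. These overlapping counts do not check the labels, and directions given here follow the labels. In KO mice the paper reports no Pla2g4e protein, by blots of hippocampus and by staining of brain sections. Whether the labels of these RNA samples match was not tested. In bulk tissue, fewer cells of a type and less RNA per cell cannot be told apart.

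No coat, adaptor, Arf, GGA or retromer gene differed between KO and WT after adjustment, but more of them lay below WT than above it. Of the 47 genes, 35 (74.5%) had a lower level in KO and 12 a higher one. The median log2 fold change, KO against WT, was -0.08 over the 47 genes and 0.01 over all genes tested. The median of the 47 was -0.04 without the library labelled WT replicate 1 and -0.13 without WT replicate 3. Because all 47 are well expressed, with at least 154 fragments in every library, they were also set beside the 9237 genes whose mean level is at or above that of the lowest of them (*Sec24d*). In those 9237 genes 55.2% were lower in KO and the median was -0.02. That set shares a floor with the 47 genes and is not matched to them in level above it. Single differences were small and ran from -0.20 (*Ap1s1*) to 0.14 (*Sec24a*), with standard errors of 0.058 to 0.129.

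In the limma-voom test, 0 of the 47 genes and 0 of all 19084 genes (0.0%) passed an adjusted p of 0.05, and the lowest adjusted p was 0.635. At an unadjusted p under 0.05, 1492 genes (7.82%) passed, and after adjustment edgeR called 0 genes, DESeq2 1 gene, limma-voom 24 genes with a covariate for the 2 libraries that express *Xist* and 3 genes without those libraries. Of the 47, 6 (12.8%) had an unadjusted p under 0.05, and all 6 were lower in KO: *Ap2s1*, *Ap3m2*, *Clta*, *Arf3*, *Arf5* and *Vps26a*. The background share lower in KO at that p was 3.44% of all genes and 5.64% of the 9237 genes at or above the lowest of the 47 in level. The 6 genes are not a stable list. The count among the 47 was 1 with library totals as the only scaling (*Ap2s1*) and 0 without both libraries that express *Xist*. It was 1 to 15 when a single library was left out, the highest without WT replicate 3. The share of all genes past that p moved as well. It was 7.80% with library totals alone and 3.77% without both libraries that express *Xist*. With a single library left out it was 4.13% (without WT replicate 2) to 11.8% (without WT replicate 3). Every 95% interval lay within 0.5 of zero on the log2 scale. The lowest bound was a change of -26.3% (*Ap1s1*) and the highest a change of 26.0% (*Sec24d*).

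**Figure D1:**
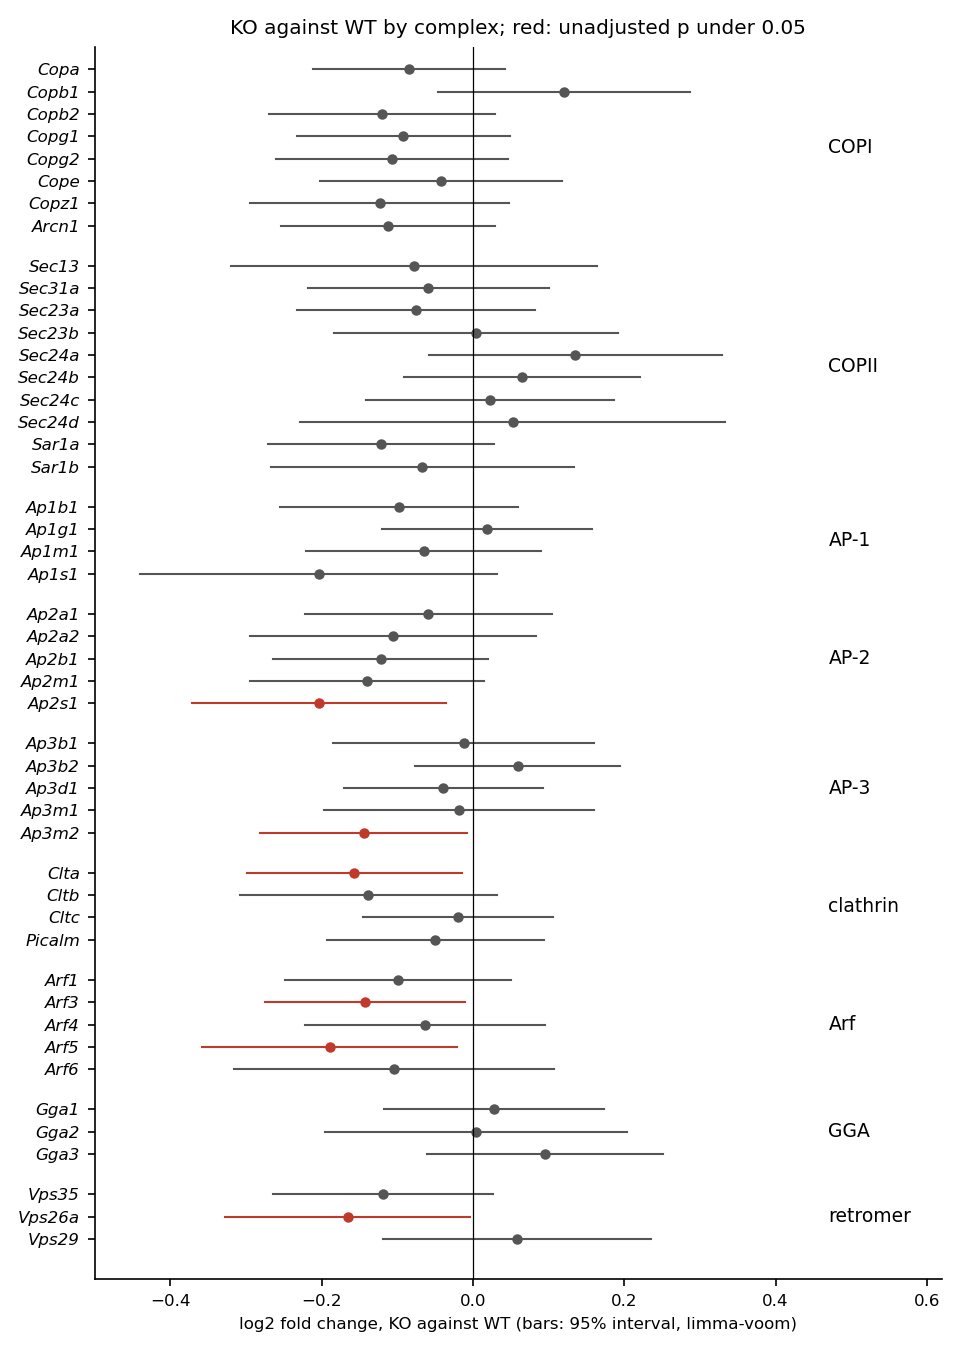
Log2 fold change of each of the 47 genes, KO against WT, on the horizontal axis, grouped by complex. Points are limma-voom estimates from 3 KO and 3 WT libraries, bars are 95% intervals, and red marks the 6 genes with an unadjusted p under 0.05, all of them left of zero. Estimates run from -0.20 to 0.14, and no gene passed after adjustment.

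**Figure D2:**
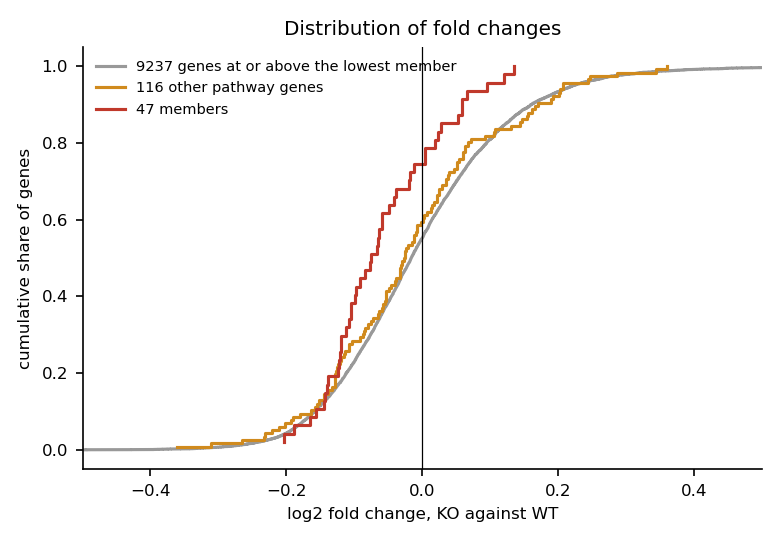
Cumulative share of genes (vertical axis) against log2 fold change, KO against WT (horizontal axis), for the 47 genes in red, 116 other genes of the pathway in orange and the 9237 genes at or above the lowest of the 47 in mean level in grey. The red curve reaches 74.5% at zero and the grey curve 55.2%. Genes are not independent replicates.

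The WT libraries were not alike. Summed over the 47 genes, the level was 6670, 6806 and 6811 CPM in KO replicates 1 to 3, and 7447, 7295 and 6779 CPM in WT replicates 1 to 3. WT replicates 1 and 2 were thus above all KO libraries, whereas WT replicate 3 was within the KO range. The median deviation of the 47 genes from their means over the 6 libraries, on the log2 scale, came to -0.04, -0.03 and -0.05 for KO, against 0.08, 0.06 and -0.04 for WT. Gene by gene, 25 of the 47 were highest in the library labelled WT replicate 1 and 10 in WT replicate 2, but 1 in WT replicate 3, and 33 had WT replicate 3 at or below the highest KO library.

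For 11 of the 47 genes (23.4%) every KO library lay below every WT library: *Copa*, *Copb2*, *Copg2*, *Arcn1*, *Sar1a*, *Ap2s1*, *Ap3m2*, *Clta*, *Arf3*, *Arf5* and *Vps26a*. The same was true of 6.29% of all genes and of 8.89% of the 9237 genes at or above the lowest of the 47 in level. For 0 of the 47 genes did every KO library lie above every WT library, against 6.72% of all genes. With library totals as the only scaling, 10 of the 47 and 4.64% of all genes were separated with KO below.

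**Figure D3:**
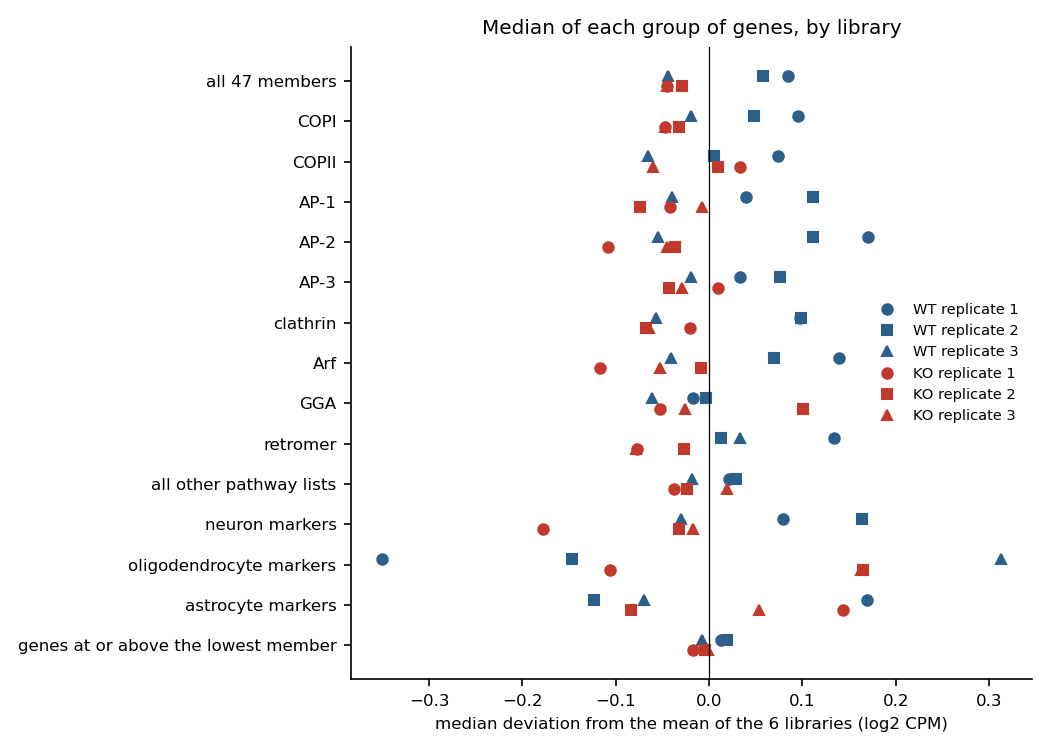
Median deviation of each group of genes from the mean of the 6 libraries (log2 CPM, horizontal axis), with 1 point per library, for all 47 genes, their 9 complexes, other pathway genes, 3 lists of cell type markers and the well expressed background. Blue marks WT, red KO, and circle, square and triangle stand for replicates 1, 2 and 3. WT replicates 1 and 2 lie at 0.08 and 0.06 for the 47 genes, and WT replicate 3 lies with the KO libraries at -0.04.

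COPI carries cargo back from the Golgi apparatus to the endoplasmic reticulum and between Golgi stacks, and its subunits assemble as a single heptameric unit before they reach the membrane. Of its 8 genes 7 were lower in KO, with a median log2 fold change of -0.10, and 0 had an unadjusted p under 0.05. *Copb2*, which encodes a cargo-binding subunit (β′-COP), had the lowest p of the complex and lies on the plus strand of chromosome 9 (98445774 to 98470435, GRCm39). It was at 80.2, 78.1 and 80.4 CPM in KO and at 92.3, 84.1 and 83.3 CPM in WT. All 3 KO libraries were below the lowest WT library, by a small margin, and the log2 fold change was -0.12 (SE 0.069, unadjusted p = 0.105 in limma-voom). *Copg1* on chromosome 6 (87864796 to 87890577, plus strand) encodes γ1-COP, which binds Arf1. It was the highest COPI gene per exon length, at 248.5, 268.9 and 257.9 CPM in KO, against 276.9, 289.5 and 260.0 CPM in WT, so the groups overlapped in WT replicate 3. Its log2 fold change was -0.09 (SE 0.065, unadjusted p = 0.181 in limma-voom).

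The remaining COPI genes showed the same small size of difference. *Copa*, for the subunit α-COP that binds retrieval signals, was at 218.0, 217.3 and 220.0 CPM in KO, against 228.8, 237.9 and 228.4 CPM in WT, without overlap. *Arcn1*, for δ-COP, was at 101.9, 102.4 and 101.8 CPM in KO, against 116.4, 108.7 and 106.0 CPM in WT, also without overlap. *Copg2* (log2 fold change -0.11), *Copz1* (-0.12) and *Cope* (-0.04) were lower as well, of which *Copg2* had no overlap between groups. *Copb1*, for β-COP, was the exception. It was at 56.7, 52.8 and 59.3 CPM in KO and at 54.6, 50.01 and 50.7 CPM in WT, with a log2 fold change of 0.12 (SE 0.076, unadjusted p = 0.141 in limma-voom).

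COPII is the coat that exports newly made proteins from the endoplasmic reticulum, and its genes were split evenly, 5 lower and 5 higher, with a median log2 fold change of -0.03. *Sar1a* encodes the GTPase that starts the coat and had the lowest p of the complex. In the order of the replicates it was at 85.3, 90.3 and 96.1 CPM in KO and at 100.6, 97.6 and 96.8 CPM in WT. The highest KO and the lowest WT library almost met, and the log2 fold change was -0.12 (SE 0.069, unadjusted p = 0.103 in limma-voom). *Sar1a* lies on chromosome 10 (61516078 to 61529076, plus strand). Its paralogue *Sar1b*, the form whose loss impairs chylomicron export from the intestine, was at 37.6, 38.5 and 35.8 CPM in KO and at 44.3, 36.4 and 36.8 CPM in WT. The log2 fold change of -0.07 (SE 0.092) rested on the library labelled WT replicate 1 and was 0.03 without that library.

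The cargo-selecting Sec24 subunits all had estimates above zero. *Sec24a* was at 38.1, 34.9 and 36.2 CPM in KO and at 31.4, 31.7 and 36.8 CPM in WT, the largest estimate upwards among the 47 genes (0.14, SE 0.089, unadjusted p = 0.155 in limma-voom). WT replicate 3 was again at the level of the KO libraries. *Sec24b* (0.07), *Sec24c* (0.02) and *Sec24d* (0.05) had smaller values, and *Sec24d* was the least expressed of all 47 genes, with 12.5 CPM in KO replicate 3. Of the other subunits, *Sec23a* (-0.08), which activates the GTPase of Sar1, *Sec13* (-0.08) and *Sec31a* (-0.06), which form the outer cage, were lower, and *Sec23b* was at 0.00. *Sec24a* and *Sar1b* are neighbours on chromosome 11, with *Sec24a* on the minus strand (51583091 to 51654461) and *Sar1b* on the plus strand (51654514 to 51682752), so that their 5′ ends face each other.

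AP-2 links cargo and phosphoinositides to clathrin at the plasma membrane, and all 5 of its genes were lower in KO, with a median log2 fold change of -0.12. *Ap2s1* (ENSMUSG00000008036.12, chromosome 7, 16472335 to 16483219, plus strand) encodes the small σ2 subunit, which helps to bind dileucine signals. It was at 76.9, 84.6 and 81.5 CPM in KO and at 99.5, 95.5 and 84.9 CPM in WT, so the highest KO and the lowest WT library differed by less than 1 CPM. Its log2 fold change was -0.20 (SE 0.077, 95% interval -0.37 to -0.04, unadjusted p = 0.0215 and adjusted p = 0.635 in limma-voom), the lowest unadjusted p of the 47 genes. *Ap2a1*, for the αA subunit, was the highest AP-2 gene per exon length and lies on chromosome 7 (44549797 to 44578920, minus strand). It was at 261.5, 284.0 and 284.0 CPM in KO and at 299.98, 306.8 and 258.7 CPM in WT. WT replicate 3 was the lowest of the 6 libraries, and the log2 fold change was -0.06 (SE 0.075), or 0.01 without both libraries that express *Xist*. *Ap2m1* (-0.14, unadjusted p = 0.0729 in limma-voom), whose μ2 subunit binds tyrosine signals, *Ap2b1* (-0.12, unadjusted p = 0.0866 in limma-voom), whose β2 subunit binds clathrin, and *Ap2a2* (-0.11) were also lower on average, and in each of these the groups overlapped.

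AP-1 sorts between the trans-Golgi network and endosomes, and 3 of its 4 genes were lower, with a median of -0.08. *Ap1s1*, which encodes the small σ1A subunit, had the lowest estimate of all 47 genes but also one of the widest spreads. On chromosome 5 (137063847 to 137074989, minus strand), it was at 148.2, 145.6 and 147.7 CPM in KO and at 203.9, 171.3 and 139.5 CPM in WT. The WT libraries spanned 139.5 to 203.9 CPM around a tight KO group, and the log2 fold change was -0.20 (SE 0.108, unadjusted p = 0.0840 in limma-voom). It was -0.07 without the library labelled WT replicate 1 and -0.35 without WT replicate 3, so its place as the lowest rests on single libraries. *Ap1b1* (-0.10) and *Ap1m1* (-0.07) were lower and *Ap1g1* was at 0.02.

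AP-3 sorts proteins to lysosomes, related organelles and synaptic vesicles. Its 5 genes had a median log2 fold change of -0.02, with 4 lower and 1 higher. The exception in size was *Ap3m2* (ENSMUSG00000031539.7, chromosome 8, 23277370 to 23295638, minus strand), the neuronal form of the μ3 subunit. It was at 138.0, 145.2 and 143.7 CPM in KO and at 154.6, 164.2 and 153.0 CPM in WT, without overlap, with a log2 fold change of -0.14 (SE 0.063, 95% interval -0.28 to -0.01, unadjusted p = 0.0403 and adjusted p = 0.635 in limma-voom). *Ap3b2*, the other neuronal subunit, had a value of 0.06 with the opposite sign. *Ap3d1* (-0.04), *Ap3m1* (-0.02) and *Ap3b1* (-0.01), which are expressed widely in the body, were close to zero.

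The clathrin genes were all 4 lower, with a median of -0.09, and the light chains differed more than the heavy chain. *Clta* (ENSMUSG00000028478.19, chromosome 4, 44004452 to 44032846, plus strand) encodes light chain A. It was at 123.7, 120.4 and 120.4 CPM in KO and at 141.3, 137.6 and 127.8 CPM in WT. Again the groups did not overlap, with a log2 fold change of -0.16 (SE 0.065, 95% interval -0.30 to -0.02, unadjusted p = 0.0328 and adjusted p = 0.635 in limma-voom). *Cltb*, for light chain B, was at 143.4, 136.3 and 133.6 CPM in KO, against 164.0, 156.9 and 135.4 CPM in WT (-0.14, SE 0.078). *Cltc*, for the heavy chain that forms the lattice, was at 612.8, 592.2 and 585.4 CPM in KO, against 623.8, 608.6 and 582.9 CPM in WT, with a value of -0.02 (SE 0.058). *Picalm*, which binds clathrin and the vesicle SNAREs, was at -0.05. The difference between the light and heavy chains was not tested.

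All 5 Arf genes were lower in KO, with a median log2 fold change of -0.10. *Arf3* (ENSMUSG00000051853.11, chromosome 15, 98634515 to 98661095, minus strand), an Arf of the Golgi and trans-Golgi network, was the most abundant of the 47 genes in every library. It was at 1045, 1100.4 and 1158 CPM in KO and at 1259, 1214 and 1172 CPM in WT. The ranges came close but did not overlap, and the log2 fold change was -0.14 (SE 0.061, 95% interval -0.28 to -0.01, unadjusted p = 0.0365 and adjusted p = 0.635 in limma-voom). *Arf5* (ENSMUSG00000020440.14, chromosome 6, 28423559 to 28426601, plus strand), an Arf of the early secretory pathway, was at 71.2, 73.0 and 72.6 CPM in KO and at 90.1, 82.8 and 75.0 CPM in WT. Its KO libraries were within 2 CPM of each other and below all WT libraries, with a log2 fold change of -0.19 (SE 0.077, 95% interval -0.36 to -0.02, unadjusted p = 0.0305 and adjusted p = 0.635 in limma-voom).

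*Arf6* (ENSMUSG00000044147.9, chromosome 12, 69418924 to 69420557, plus strand) encodes the Arf of the plasma membrane and recycling endosomes, which acts on endocytic recycling and dendrite growth, and whose protein the study followed in cultured neurons. Its transcript was at 23.5, 25.6 and 24.4 CPM in KO and at 29.2, 24.9 and 24.9 CPM in WT. Apart from the library labelled WT replicate 1, the 5 libraries lay between 23.5 and 25.6 CPM. The log2 fold change was -0.10 (SE 0.097, 95% interval -0.32 to 0.11, unadjusted p = 0.304 in limma-voom), and it was 0.01 without both libraries that express *Xist*. *Arf1*, which recruits COPI and AP-1, was at 242.1, 261.3 and 259.2 CPM in KO, against 289.6, 275.8 and 252.0 CPM in WT (-0.10, SE 0.069), and *Arf4* was at -0.06.

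The GGA proteins are monomeric adaptors that carry mannose 6-phosphate receptors from the trans-Golgi network, and they depend on Arf for binding. All 3 GGA genes had estimates at or above zero, with a median of 0.03. *Gga3* on chromosome 11 (115475081 to 115494877, minus strand), which has been tied to the sorting of the β-secretase BACE1 in neurons, was at 86.3, 96.0 and 95.7 CPM in KO and at 83.1, 90.9 and 85.8 CPM in WT. The groups overlapped, and the log2 fold change was 0.10 (SE 0.072, unadjusted p = 0.208 in limma-voom). *Gga1* on chromosome 15 (78761390 to 78778785, plus strand) was at 72.9, 74.0 and 70.5 CPM in KO, against 73.1, 71.6 and 68.7 CPM in WT, a value of 0.03, which was -0.0008 without WT replicate 3. *Gga2* was at 0.00.

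Retromer takes cargo out of endosomes through a core of *Vps35*, *Vps26a* and *Vps29*, and 2 of these 3 genes were lower in KO. *Vps26a* (ENSMUSG00000020078.17, chromosome 10, 62291014 to 62322584, minus strand) encodes an arrestin-like subunit that contacts cargo with sorting nexin 3. It was at 57.1, 56.5 and 57.1 CPM in KO and at 69.3, 60.8 and 61.7 CPM in WT. The KO libraries lay within 1 CPM of each other and below all WT libraries, with a log2 fold change of -0.17 (SE 0.075, 95% interval -0.33 to -0.003, unadjusted p = 0.0461 and adjusted p = 0.635 in limma-voom). *Vps35*, the scaffold whose mutation causes a familial form of Parkinson's disease, was at 127.7, 133.9 and 131.4 CPM in KO and at 149.7, 144.4 and 133.0 CPM in WT (log2 fold change -0.12, SE 0.067, unadjusted p = 0.0999 in limma-voom), so that KO replicate 2 lay just above WT replicate 3. *Vps29* had the opposite sign (0.06, SE 0.081).

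**Figure D4:**
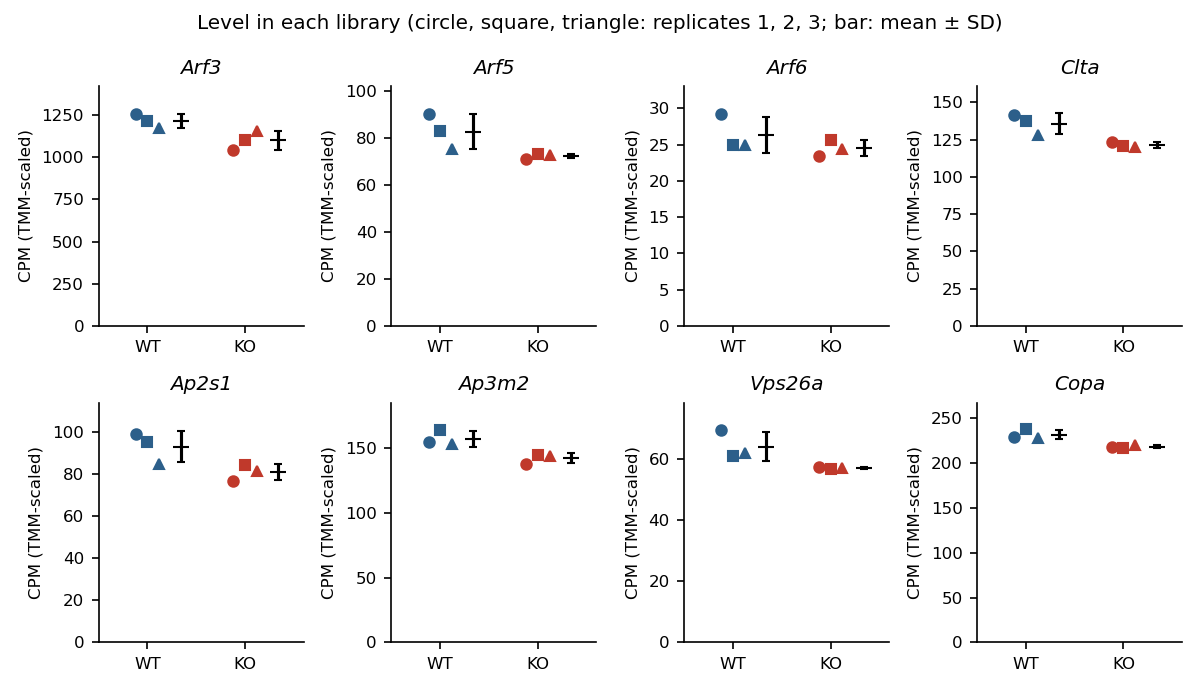
Level in each library (TMM-scaled CPM, vertical axis from 0) of *Arf3*, *Arf5*, *Arf6*, *Clta*, *Ap2s1*, *Ap3m2*, *Vps26a* and *Copa* in WT (blue) and KO (red). Circle, square and triangle stand for replicates 1, 2 and 3, and bars give mean ± SD of 3 libraries. The groups do not overlap in 7 of these 8 genes, though the gaps are small beside the height above zero. In *Arf6* only WT replicate 1, at 29.2 CPM, stands apart from the rest.

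Sequence upstream of the transcription start was available from RefSeq (GRCm38.p6) for 42 of the 47 genes, in 48 windows of 300 bases that run from 250 bases before the start to 50 after it, some of them overlapping windows of 1 gene with 2 starts. *Arcn1*, *Ap1m1*, *Ap3m2*, *Arf6* and *Vps35* had no entry. The median GC content of the upstream 250 bases was 60.8%, against 52.4% for all genes and 55.6% for coding genes. Both strands were searched for 6 motifs, none of which contains the letters of another. The GC box GGGCGG was in 38 of the 48 windows (79.2%), against 35.7% of all 32851 windows and 46.2% of the 21262 coding ones. The ETS site CCGGAAG was in 15 (31.3%, against 8.86% and 11.6%), and the TATA box TATAAA was in 1 (2.08%, *Sec31a*, against 13.6% and 12.6%). The shorter lists were the cyclic AMP response element TGACGTCA in 3 windows (6.25% against 1.79% of all, in *Ap2b1*, *Cltb* and *Cope*), the core of the unfolded protein response element TGACGTG in 6 (12.5% against 2.01% of all, in *Arf1*, *Copb1*, *Copb2*, *Sec23a* and *Sec24d*), and the lysosomal gene element core TCACGTGAC in 3 (6.25% against 0.782% of all, in *Picalm* and *Vps26a*). A match is a description of letters and not a site shown to be used, and no binding or chromatin was measured.

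The 250 bases upstream of the start are shown for 3 of the 6 genes with the lowest p, each with a different make-up. That of *Ap2s1* (chr7:16738194-16738443, plus strand, 52.4% GC) holds an ETS site close to the start. That of *Arf5* (chr6:28423354-28423603, plus strand, 68.8% GC) holds 4 GC boxes. The more distal of 2 windows of *Vps26a* (chr10:62486806-62487055, minus strand, 64.4% GC) holds the lysosomal gene element core, which reads on both strands, and 4 GC boxes. Coordinates are GRCm38, the sequences are written 5′ to 3′ on the strand of the gene, and capitals mark the motif matches.
Ap2s1: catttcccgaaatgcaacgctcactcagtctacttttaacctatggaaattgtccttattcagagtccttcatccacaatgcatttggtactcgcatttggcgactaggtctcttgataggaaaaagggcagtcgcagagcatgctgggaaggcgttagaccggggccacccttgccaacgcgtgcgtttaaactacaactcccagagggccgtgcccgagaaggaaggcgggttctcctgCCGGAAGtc
Arf5: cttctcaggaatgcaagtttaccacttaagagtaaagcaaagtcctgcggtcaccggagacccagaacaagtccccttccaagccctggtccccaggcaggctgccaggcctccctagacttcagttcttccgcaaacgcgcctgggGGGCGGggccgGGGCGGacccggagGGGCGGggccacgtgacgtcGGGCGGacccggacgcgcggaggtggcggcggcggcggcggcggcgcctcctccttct
Vps26a: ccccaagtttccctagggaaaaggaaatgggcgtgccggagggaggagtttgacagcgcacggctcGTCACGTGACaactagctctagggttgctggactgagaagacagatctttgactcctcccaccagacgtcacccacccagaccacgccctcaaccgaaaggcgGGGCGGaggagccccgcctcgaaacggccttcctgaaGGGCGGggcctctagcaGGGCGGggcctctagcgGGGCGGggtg

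Levels were compared between genes as CPM per kb of exon, in WT. *Arf3* and *Arf1* were at the top, at 251.9 ± 9.06 and 130.5 ± 9.11 CPM per kb (SD, n = 3). The other Arf genes were lower, *Arf5* at 43.3 ± 3.94, *Arf4* at 19.4 ± 0.881 and *Arf6* at 17.2 ± 1.64. *Arf4* and *Arf6* lay within their joint spread, but with the length of the principal transcript they were at 32.2 and 17.2 CPM per kb. Next after *Arf1* stood *Ap1s1* at 78.1 ± 14.7 CPM per kb. *Clta* was at 75.3 ± 3.89 and *Cltc* at 71.2 ± 2.43 CPM per kb, and *Ap2a1*, *Ap2s1* and *Ap2m1* were at 67.1 ± 6.05, 63.4 ± 5.11 and 57.3 ± 4.48 CPM per kb. The secretory coats were at 7.40 (*Arcn1*) to 25.0 (*Copg1*) CPM per kb for COPI and 2.18 (*Sec24d*) to 31.2 (*Sar1b*) CPM per kb for COPII, ranges that overlap those of the Arf and clathrin genes. These lengths join all annotated exons of a gene. With the length of the principal transcript instead, the leading gene was the same in 6 of the 9 complexes, and it changed in COPII (*Sar1a*), AP-2 (*Ap2s1*) and retromer (*Vps35*). COPI then ran from 15.5 (*Copb1*) to 66.5 (*Copg1*) and COPII from 3.53 (*Sec24d*) to 37.6 (*Sar1a*) CPM per kb.

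**Figure D5:**
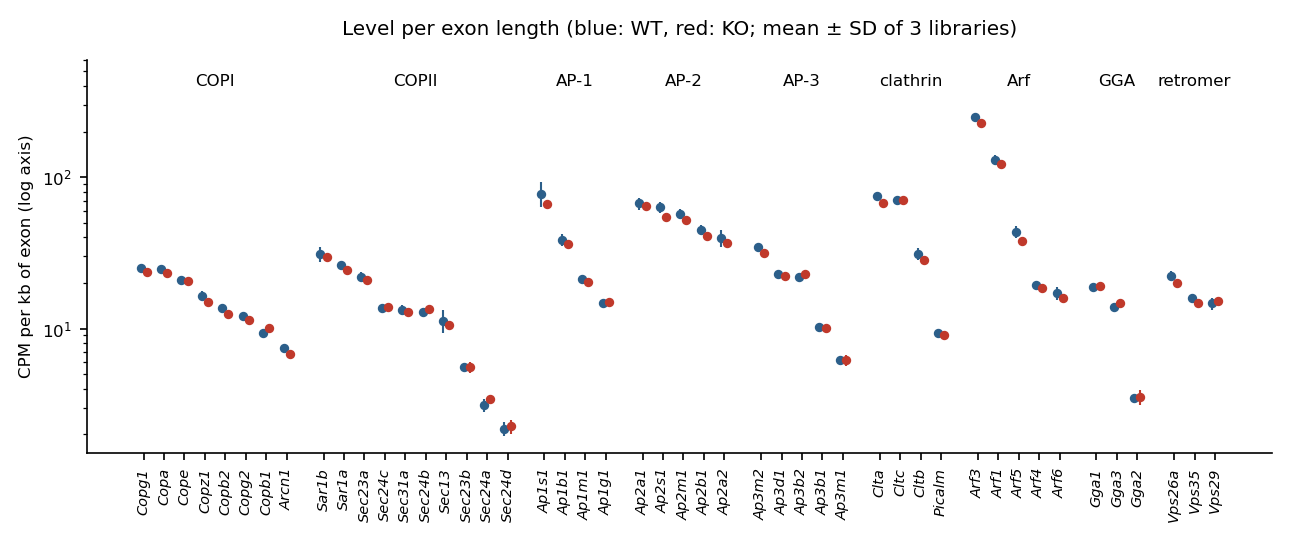
Level of each of the 47 genes as CPM per kb of exon (vertical log axis), ordered by WT level within each complex, with WT in blue and KO in red. Points are means and bars SD of 3 libraries. *Arf3* is highest at 251.9 and *Sec24d* lowest at 2.18 CPM per kb in WT, and for most genes the blue and red points almost coincide.

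Several members are paralogues that fill the same place in a coat. Their ratios were taken from the mean over all 6 libraries, KO and WT together. The neuronal AP-3 subunits exceeded their ubiquitous counterparts per kb of exon, *Ap3m2* over *Ap3m1* by 5.35 times and *Ap3b2* over *Ap3b1* by 2.21 times. *Arf1* was at 0.525 of *Arf3*, *Ap2a2* at 0.580 of *Ap2a1*, *Cltb* at 0.417 of *Clta*, *Copg2* at 0.485 of *Copg1* and *Sec23b* at 0.259 of *Sec23a*. *Sar1b* to *Sar1a* was 1.21. With the principal transcript length the *Sar1* ratio turned to 0.881, and 3 other ratios moved by over 1.5 times, *Copg2* to *Copg1* to 0.236, *Sec23b* to *Sec23a* to 0.499 and *Ap3b2* to *Ap3b1* to 3.96. The balance within the 8 pairs was compared between KO and WT, which does not depend on the scaling of the libraries. The difference in log2 ratio, KO minus WT, ran from -0.12 (*Ap3m2* to *Ap3m1*) to 0.08 (*Sec23b* to *Sec23a*). Two-sided exact permutation tests with n = 3 against 3 gave p = 0.2 to 0.9 (0.8 to 0.9 after Benjamini-Hochberg adjustment over the 8 pairs), and the smallest p this design allows is 0.1.

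Further genes of these pathways were taken from 6 lists of 117 genes, 116 of which were tested. Of these, 69 (59.5%) were lower in KO, the median log2 fold change was -0.03, and 6 lower and 3 higher genes had an unadjusted p under 0.05, with 0 after adjustment. The background shares at that p are 3.44% of all genes lower and 4.38% higher. Other coat and adaptor subunits, which include σ subunits of AP-1 and AP-3 and the AP-4 and AP-5 complexes, were lower in 6 of 15, with a median of 0.05 and 0 genes past the unadjusted p. Factors of the exit sites of the endoplasmic reticulum were lower in 12 of 18 (median -0.05, 1 lower gene past the unadjusted p). Clathrin accessory and uncoating factors were lower in 17 of 27 (median -0.03, 1 gene past it in each direction), and the Arf exchange factors were lower in 9 of 14 (median -0.04, 0 genes). The Arf GTPase-activating proteins were lower in 13 of 20 (median -0.03, 2 genes past it in each direction). Partners of retromer, which include sorting nexins and the WASH complex, were lower in 12 of 22 (median -0.01, 2 lower genes).

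The 5 genes of lowest p in each direction came from these lists. *Asap1*, a GTPase-activating protein for Arf1 and Arf5 at the cell edge, was at 135.6, 158.4 and 159.0 CPM in KO, against 193.7, 189.6 and 161.1 CPM in WT (log2 fold change -0.27, unadjusted p = 0.0101 in limma-voom). *Necap1*, a partner of AP-2 in brain, was at 128.8, 137.1 and 133.3 CPM in KO, against 155.4, 161.3 and 142.9 CPM in WT (log2 fold change -0.20, unadjusted p = 0.0111 in limma-voom). In both genes the KO libraries lay below all WT libraries. *Snx3*, which works with retromer, was at 98.3, 92.0 and 99.6 CPM in KO, against 125.7, 108.5 and 102.7 CPM in WT (log2 fold change -0.21, unadjusted p = 0.0232 in limma-voom). *Vps26b*, the paralogue of *Vps26a* in retromer, was at 97.2, 100.7 and 103.6 CPM in KO, against 114.2, 115.0 and 106.6 CPM in WT (log2 fold change -0.16, unadjusted p = 0.0357 in limma-voom), also without overlap in either gene. *Agap3*, another GTPase-activating protein for Arf, was at 233.0, 248.6 and 266.6 CPM in KO and at 288.1, 302.5 and 264.2 CPM in WT, with overlap in WT replicate 3 (log2 fold change -0.19, unadjusted p = 0.0209 in limma-voom).

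Among the higher genes, *Acap2*, a GTPase-activating protein for Arf6, was at 163.2, 148.6 and 164.9 CPM in KO, against 134.2, 146.8 and 137.2 CPM in WT (log2 fold change 0.19, unadjusted p = 0.0171 in limma-voom). *Arap1*, also a GTPase-activating protein for Arf, was at 17.8, 18.1 and 20.8 CPM in KO, against 17.4, 13.7 and 15.4 CPM in WT (log2 fold change 0.29, unadjusted p = 0.0335 in limma-voom). The groups did not overlap in either gene. *Dnm2*, the widely expressed dynamin that cuts vesicle necks (0.19, unadjusted p = 0.0467 in limma-voom), *Ap1s2*, a paralogue of *Ap1s1* (0.34, unadjusted p = 0.0511 in limma-voom), and *Washc4*, of the actin-nucleating WASH complex on endosomes (0.15, unadjusted p = 0.0550 in limma-voom), followed. *Washc4* was at 54.5, 53.8 and 55.9 CPM in KO and at 48.7, 49.8 and 49.9 CPM in WT, without overlap. *Ap1s2* was at 44.2, 31.7 and 28.5 CPM in KO, against 30.3, 22.4 and 29.4 CPM in WT, and KO replicate 1 carried much of its difference. The adjusted p of all 10 genes in limma-voom was 0.635 to 0.637.

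Levels of cell type markers are given beside these results, and 0 of them passed after adjustment. Of 12 neuron markers 11 were lower in KO, with a median log2 fold change of -0.15, and 3 had an unadjusted p under 0.05 (*Snap25*, *Stmn2* and *Thy1*). Of the 9237 genes at or above the lowest of the 47 in level, 55.2% were lower and 5.64% were lower at that p. Those genes are not matched to the markers in level. The summed level of the neuron markers was 12749 to 14223 CPM in KO, against 13846 to 15207 CPM in WT. Of 12 oligodendrocyte markers 10 were higher, with a median of 0.14 and sums of 2311 to 2699 CPM in KO, against 1813 to 2991 CPM in WT. WT replicate 3, which lay with the KO libraries for the coat genes, had the highest oligodendrocyte sum. All 12 astrocyte markers were higher (median 0.06, sums of 4977 to 5519 CPM in KO, against 4712 to 5490 CPM in WT). Markers of microglia were lower in 7 of 12 (median -0.02, sums of 432 to 470 CPM in KO, against 412 to 513 CPM in WT), and endothelial markers in 9 of 12 (median -0.06, sums of 371 to 410 CPM in KO, against 371 to 415 CPM in WT). All 10 markers of striatal neurons were higher in KO, with a median of 0.36, sums of 343 to 451 CPM in KO, against 256 to 429 CPM in WT, and the highest WT value again in WT replicate 3. At the unadjusted p, *Aif1* of microglia was lower, *Penk* of striatal neurons was higher, and 0 markers of the other 3 lists passed. The summed levels of the groups overlapped in all 6 lists. No marker of these lists was at 0 fragments in any library and those of neurons were abundant in all 6. Their part in the differences of the 47 genes was not tested.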

How the data were processed

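RNA of 6 samples of mouse prefrontal cortex was sequenced as polyadenylated, strand-specific libraries, 3 from KO and 3 from WT mice, grouped by their titles. The deposited values are raw counts of fragments per gene. Per the labels and file headers, the authors aligned reads with STAR 2.7.9a and counted exonic fragments with featureCounts 1.6.0 (reverse-stranded, GENCODE M31, GRCm39). The study's methods name an earlier build and annotation, so gene coordinates are those of the files. The headers list no option for fragments that map to several places, and such fragments are not counted, which lowers genes with near-identical copies. No sample columns were left unused. Symbols came from GENCODE M21 by gene identifier (52073 of 56923 genes). None of the 47 genes shares exons of the same strand with another gene.

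Genes with at least 6 fragments in at least 1 library were kept (19084 of 29943 with a fragment), as in the study. KO was compared with WT with TMM factors (edgeR 4.0.16) and voom in limma 3.58.1 (R 4.3.3), two-sided, without covariates, and p-values were adjusted by Benjamini-Hochberg across the 19084 genes at a threshold of 0.05. Levels are TMM-scaled CPM, except those of *Xist*, which use library totals alone, and are given for replicates 1, 2 and 3 in that order. A log2 fold change is KO over WT, and SE is its standard error in the fit. Counts carry no molecular identifiers, so counting error leaves out amplification. On simulated counts of 18572 genes, limma-voom recovered 95% of 2-fold and 100% of 4-fold changes, and 9.72% of its calls were false. The script therefore calls changes of that size with 3 libraries a group.

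Values per library are given for members with an unadjusted p under 0.05, the member of lowest p and of highest level per exon length in each complex, *Arf6*, and some neighbours of these within each complex that were chosen after their values were seen. Of the other pathway genes, the 5 of lowest p in each direction are named. The members, the lists and the markers were chosen with earlier results of these data known. The 16 alternatives were the edgeR quasi-likelihood test, DESeq2 1.42.0, RLE size factors, library totals alone, filters of at least 1 fragment and of filterByExpr, weights for sample quality, a block for the replicate number, a covariate for libraries with *Xist* above 100 CPM, leaving out each library, and leaving out both libraries with *Xist*. The principal transcript length and library totals for the separation of groups were added after seeing the data. Promoter windows came from RefSeq (GRCm38.p6). Protein sequences were not used here.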

Additional observations from a re-analysis of the deposited data

How the results depend on the processing

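The number of genes past the adjusted threshold was 0 and became 1 with DESeq2, 24 with a covariate for libraries that express *Xist*, 3 without both of those libraries, and 0 to 1 when each library was left out in turn. The count of the 47 coat, adaptor and retromer genes with an unadjusted p under 0.05 was 6. It was 4 to 7 under the other tests, scalings, filters and weights, except 1 with library totals alone, 0 without both libraries that express *Xist*, and 1 to 15 when each library was left out. The 15 came without WT replicate 3 and comprised 14 lower genes and *Sec24a*, which was higher. In that fit 11.8% of all genes tested had an unadjusted p under 0.05, against 7.82% in the main fit. That share was 4.13% without WT replicate 2, the lowest with a single library left out, and 3.77% without both libraries that express *Xist*. The cause of these shifts was not tested. Between 31 and 38 of the 47 genes were lower in KO under all 16 alternatives, and the median log2 fold change was -0.126 to -0.0373 when each library was left out, with the lowest value without WT replicate 3 and the highest without the library labelled WT replicate 1. The sign of *Sar1b* turned with the library labelled WT replicate 1 left out (range -0.1158 to 0.025 over the single libraries left out) and was 0.0181 without both libraries that express *Xist*. In that last fit *Ap2a1* was at 0.0117 and *Arf6* at 0.0073. *Gga1* ranged from -0.0008, without WT replicate 3, to 0.047 over the single libraries left out. The other genes named by rule, and *Pla2g4e* at -0.76 to -0.39, kept their sign under all 16 alternatives. Their size was less stable. Over the 16 alternatives *Ap1s1* ran from -0.35 to -0.07, *Ap2s1* from -0.27 to -0.12, *Arf5* from -0.26 to -0.11, *Arf3* from -0.18 to -0.08, *Vps26a* from -0.20 to -0.11, *Sar1a* from -0.17 to -0.06, *Copb2* from -0.15 to -0.07, *Copg1* from -0.14 to -0.06, *Gga3* from 0.06 to 0.15, *Asap1* from -0.35 to -0.14, *Snx3* from -0.28 to -0.13, *Dnm2* from 0.10 to 0.27 and *Ap1s2* from 0.15 to 0.48. The median of all genes was 0.01, and 0.03 with library totals alone.

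Samples with the same replicate number deviated together in replicate 1 (correlation 0.453), less in replicate 2 (0.119) and not in replicate 3 (-0.01), and were therefore not taken as pairs. With the replicate block, 0 genes passed after adjustment, 1693 had an unadjusted p under 0.05, 35 of the 47 genes were lower, the median was -0.08, and 5 had an unadjusted p under 0.05 (*Ap1s1*, *Ap2s1*, *Clta*, *Arf5* and *Vps26a*).

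Each of the 47 genes had at least 154 fragments in every library. The standard errors of their log2 fold changes, 0.058 to 0.129 with 3 libraries a group, limit the differences that can be told from zero.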

Other observations

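The targets of the unfolded protein response, the chaperones and regulators that cells raise when proteins misfold in the endoplasmic reticulum, were lower in KO in 19 of 20 genes, with a median log2 fold change of -0.16, where 48.1% of all genes tested and 55.2% of the 9237 genes at or above the lowest coat gene in level were lower. No gene passed after adjustment, and 2 had an unadjusted p under 0.05, against 3.44% of all genes lower at that p. *Atf4*, a transcription factor of the stress response, was at 81.9, 85.9 and 76.1 CPM in KO and at 91.8, 102.2 and 84.5 CPM in WT (log2 fold change -0.19, unadjusted p = 0.0410 in limma-voom). *Calr*, which encodes the chaperone calreticulin, was at 274.1, 275.5 and 274.7 CPM in KO and at 359.2, 301.6 and 280.3 CPM in WT (log2 fold change -0.18, unadjusted p = 0.0464 in limma-voom). The KO libraries of *Calr*, *Canx* and *Creld2* lay below all their WT libraries, as they did for 6.29% of all genes and 8.89% of the 9237. *Hspa5*, the main chaperone of the endoplasmic reticulum, was at 198.5, 224.6 and 206.3 CPM in KO and at 283.4, 252.7 and 185.3 CPM in WT, so that WT replicate 3 was the lowest of the 6 libraries. The median deviation of the list was -0.09, -0.04 and -0.06 in KO replicates 1 to 3 and 0.25, 0.11 and -0.15 in WT replicates 1 to 3, so the WT libraries stood in the same order as for the 47 genes, where they were at 0.08, 0.06 and -0.04. This list was chosen with earlier results of these data known, and the relation of its levels to those of the coat genes was not tested.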
